A study of Mus musculus with 25 samples.

Results

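The genes described are the coreceptor genes *Cd4*, *Cd8a* and *Cd8b1*, which mark the passage to the double positive stage, and *Cd24a*, *Kit*, *Cd44* and *Spn*, used as markers of the earlier stages. They were taken by name for what they encode, 7 genes of a table of 48795, of which 14141 were tested. All 7 averaged 10 normalized counts or more over the libraries and were tested. The normalized count is a gene's read count divided by a size factor of its library.

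Thymocytes begin without CD4 or CD8 (double negative, DN), pass the β-selection checkpoint when a pre-TCR signal reports a rearranged TCRβ chain, and then turn on both coreceptors (double positive, DP). In the mouse most pass through an immature single positive stage at which CD8 is present ahead of CD4. CD44 and the stem cell factor receptor KIT mark the earliest progenitors and are lost as cells commit to the T lineage, CD24 is high on immature thymocytes, and CD43, the product of *Spn*, is a sialoglycoprotein of the leukocyte surface.

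RNA was sequenced from 25 libraries, each from the thymus of 1 mouse aged 7 to 8 weeks. All mice lacked *Rag1*, which stops thymocytes before β-selection because no TCRβ chain can be made, and all carried CD2-Cre, which acts in lymphoid cells. The control mice were *Wnk1* fl/+ and so kept 1 intact *Wnk1* allele, and the WNK1-deficient mice were *Wnk1* fl/fl. They were taken without injection (0 h) or 3, 24 or 48 h after 150 µg of an antibody to CD3ε, which stands in for the pre-TCR signal. Each of the 8 groups had 3 libraries, except that WNK1-deficient thymocytes at 0 h had 4. Thy1.2+ CD44- thymocytes were sorted, a gate that the labels give as the DN3 and DN4 stages and that names neither CD4 nor CD8. In RNA from sorted populations, fewer cells with a transcript and less of it per cell cannot be told apart.

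Depth ran from 22.5 to 57.3 M reads, with a median of 36.6 M. *Wnk1* was lower in WNK1-deficient thymocytes at each time, with log2 differences from -0.83 to -1.05. A set of 3 libraries was set aside in an alternative fit chosen after their values in these genes were seen, the third replicates of the control mice at 3 and at 24 h and of the WNK1-deficient mice at 48 h. Over all genes tested they were not clearly apart, with a mean correlation with their group mates of 0.960, 0.954 and 0.957 beside 0.956 to 0.982 in the other libraries. Each was on another lane than its group mates, as were the third replicates of control at 48 h and WNK1-deficient at 24 h, and the part of the lane in their values was not tested. By *Xist* and Y-linked transcripts the mice were female at 0 and 48 h and male at 3 and 24 h, so sex and injection time cannot be told apart in comparisons of 3 or 24 h with 0 h or of 48 h with 24 h. All control libraries at 0 h were named for sequencing lane 1 and all WNK1-deficient ones for lane 2, which leaves genotype and lane as a pair that cannot be told apart at 0 h. Of 10 T lineage identity markers, none was at 0 in any group, but their sum moved with the groups, from 419955 to 489441 in control and from 253151 to 301962 in WNK1-deficient libraries at 0 h, and from 161224 to 214486 and from 112187 to 136475 at 24 h. Markers of other cells moved too: the sum of 8 macrophage and dendritic cell markers was 3782 to 4128 in control libraries at 0 h and 437 to 1287 at 48 h, and 937 to 1591 in WNK1-deficient libraries at 48 h, while at 24 h it was 1003 to 1868 in control and 2617 to 4110 in WNK1-deficient ones. Of the 6 mast cell markers *Cpa3*, a protease gene also read in early T cell progenitors, made up nearly the whole sum, which was 33423 to 43457 in WNK1-deficient libraries at 24 h and 2603 to 5627 in control, with 3 of the 6 at 0 in the former and 5 in the latter. The sum of 8 NK and innate lymphoid markers was 7013 to 10696 in control and 18206 to 30022 in WNK1-deficient libraries at 0 h. *Gzma* and *Nkg7* carry most of it: over the 25 libraries they averaged 12079 and 6811, and the other markers from 12.3 (*Eomes*) to 189 (*Fcer1g*). At 0 h 4 of the 8 averaged under 10 in control and 3 in WNK1-deficient libraries. By this sum WNK1-deficient replicate 3 at 48 h was at 50348 while its group's median was 21959. In that replicate *Gzma* was at 45643 and *Nkg7* at 4540, with the other markers of the list from 1.23 (*Klrd1*) to 93.5 (*Fcer1g*). The part of other cells in the results was not tested.

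The coreceptor genes rose in control thymocytes and none of them rose past the threshold in WNK1-deficient ones. Of the 7 genes, 6 changed in control thymocytes at 3 h against 0 h, beside 37.0% of all genes tested, 1 at 24 h (33.9% of all genes) and 6 at 48 h (42.4%). In WNK1-deficient thymocytes 1 of the 7 changed at 3 h (24.7% of all genes), 4 at 24 h (30.4%) and 1 at 48 h (26.8%). A change here is an adjusted p under 0.05 in limma, after Benjamini-Hochberg adjustment over all genes tested in that comparison. The median log2 change of the 7 genes at 48 h was 2.21 in the control and 0.14 in the WNK1-deficient group, beside -0.01 and -0.02 over all genes tested. Without the 3 set-aside libraries the counts were 4, 5 and 6 in control (34.4%, 36.7% and 44.8% of all genes) and 2, 5 and 2 in WNK1-deficient thymocytes (29.2%, 33.2% and 33.9%) at 3, 24 and 48 h, and *Cd4* at 24 h was then among the genes that rose in WNK1-deficient thymocytes. With the lane as a covariate none of the 3 coreceptor rises at 48 h in control passed, with log2 changes of 2.54, 2.73 and 3.32 for *Cd4*, *Cd8a* and *Cd8b1* (adjusted p = 0.0795, 0.137 and 0.155 in limma).

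**Figure D1:**
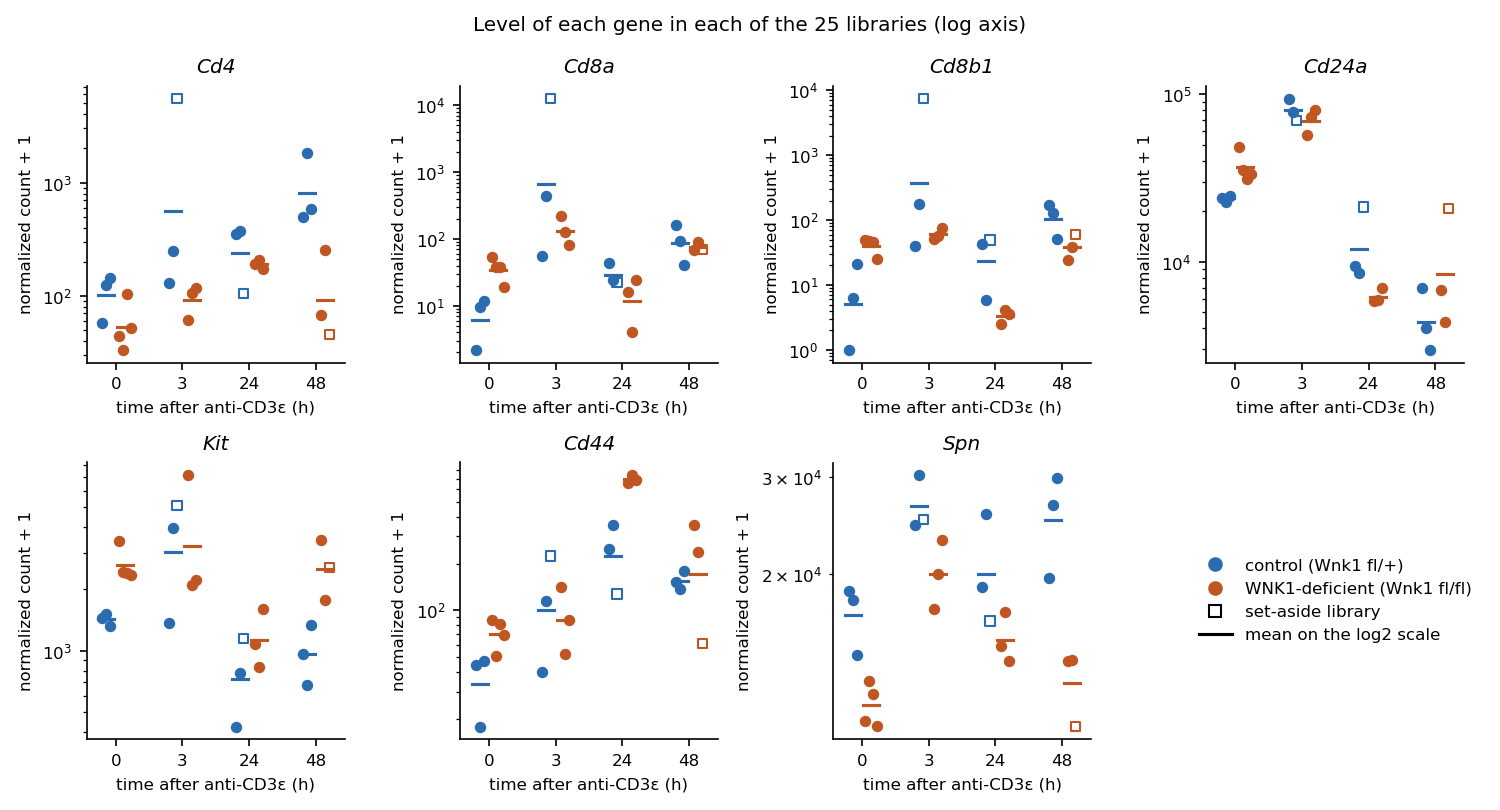
Normalized count plus 1 of each of the 7 genes (log axis) in the 25 libraries, set out by hours since anti-CD3ε, control in blue and WNK1-deficient in orange, with open squares for the 3 set-aside libraries and bars for the mean on the log2 scale. Control replicate 3 at 3 h lies far above all other libraries in *Cd8a* (12653) and *Cd8b1* (7422), and *Cd4* at 48 h is higher in all 3 control libraries than in any WNK1-deficient one.

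*Cd8a* and *Cd8b1* encode the 2 chains of CD8, the coreceptor for MHC class I, and are neighbours on chromosome 6 (*Cd8b1* at chr6:71322788-71337492 and *Cd8a* at chr6:71373427-71379171 of GRCm38.p6, both protein coding), with 35.93 kb between them. The *Cd8a* window from 250 bases before to 50 after its annotated start (chr6:71373177-71373476, plus strand) is printed because *Cd8a* gave the largest fitted change among the 7 genes, and capitals mark E-box letters (CANNTG, the core read by E proteins and their partners).

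Cd8a: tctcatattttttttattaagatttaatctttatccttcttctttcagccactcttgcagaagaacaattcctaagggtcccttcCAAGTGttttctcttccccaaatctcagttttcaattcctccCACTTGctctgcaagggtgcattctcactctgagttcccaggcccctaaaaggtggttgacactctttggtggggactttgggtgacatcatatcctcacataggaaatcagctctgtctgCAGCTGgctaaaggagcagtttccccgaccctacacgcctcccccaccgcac

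The window held 3 E-boxes, and 72.3% of 32851 RefSeq promoter windows of the same length held at least 1. The letters TGTGGT (RUNX), AGGAAG (ETS) and CTTTGA (TCF1 and LEF1), searched on both strands, were not in this window, and 16.8%, 35.4% and 16% of all windows held them. These letters are a description of the sequence and say nothing of binding.

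At 0 h control thymocytes had next to no *Cd8a*, with normalized counts of 1.17, 8.45 and 10.6 (1, 8 and 10 reads). At 3 h the control libraries were at 54.0, 432 and 12653, at 24 h at 41.9, 23.3 and 21.1 and at 48 h at 161, 92.7 and 40.0. Every control library after injection lay above every one at 0 h, and at 3 h the highest was 234 times the lowest. The rise passed the test at 3 h (log2 change 6.76, standard error 1.19, adjusted p = 0.000196) and at 48 h (3.79, adjusted p = 0.0137) and not at 24 h (2.20, adjusted p = 0.16). Without control replicate 3, the change at 3 h was 4.64 and still passed (limma, adjusted p = 0.000438). At 48 h the adjusted p was 0.0799 without control replicate 1 at 0 h, whose *Cd8a* rests on a single read, and 0.0563 without control replicate 1 at 48 h.

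In WNK1-deficient thymocytes all *Cd8a* values at 0 h lay above the control ones, a difference that did not pass the test (limma, adjusted p = 0.112). The fitted changes from 0 h were smaller in size than in control, and no genotype by time interaction of *Cd8a* passed in limma. Normalized counts were 52.6, 36.9, 36.6 and 18.4 at 0 h, 217, 124 and 79.9 at 3 h, 14.8, 3.06 and 23.6 at 24 h, and 66.8, 90.5 and 68.9 at 48 h. The libraries at 3 and 48 h all lay above those at 0 h, and no change against 0 h passed the test, with log2 changes of 1.90 (95% interval -0.41 to 4.21), -1.58 (-3.89 to 0.73) and 1.12 (-1.19 to 3.43) at 3, 24 and 48 h. In a fit of the compared groups alone the 3 h rise passed (limma, adjusted p = 0.00886). Between the genotypes at 48 h the log2 difference was -0.18, with a 95% interval from -2.64 to 2.29 that leaves room for a large difference either way.

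*Cd8b1*, like its neighbour, had its highest mean in control thymocytes at 3 h. Control libraries held 0, 5.28 and 20.1 normalized counts at 0 h, 38.3, 179 and 7422 at 3 h, 41.9, 4.99 and 48.6 at 24 h, and 172, 128 and 50.1 at 48 h. The 0 reads of control replicate 1 at 0 h allow up to 3 reads, or 3.52 normalized counts, counting error only. *Cd8b1* rose at 3 h (log2 change 6.20, adjusted p = 0.000791) and at 48 h (4.36, standard error 1.27, adjusted p = 0.00872), and at 24 h gave 2.20 (adjusted p = 0.191). The change at 3 h was 4.04 without control replicate 3 (limma, adjusted p = 0.00404), and at 48 h the adjusted p was 0.0713 without control replicate 1 at 0 h. The 3 h call was lost with the lane as a covariate (4.65, adjusted p = 0.171) and in a fit of the compared groups alone (adjusted p = 0.0529).

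WNK1-deficient libraries held 48.4, 46.9, 45.1 and 23.9 normalized counts of *Cd8b1* at 0 h, 50.3, 55.7 and 74.8 at 3 h, 1.48, 3.06 and 2.62 at 24 h, and 22.9, 37.0 and 59.1 at 48 h. All 3 libraries at 24 h fell below all others of that genotype, each with 2 reads. The 24 h fall passed the test (log2 change -3.61, standard error 1.19, adjusted p = 0.0248), and in summed reads 0 h was 17.6 times 24 h (counting interval 7.93 to 48.7). That interval holds counting error only and leaves out the spread between mice. The call of the 24 h fall is narrow: without replicate 1 or 2 at 0 h, or without any 1 of the 3 libraries at 24 h, the adjusted p rose to between 0.0506 and 0.0806. It was also lost with a pseudocount of 5 (-2.60, adjusted p = 0.0644) in edgeR (adjusted p = 0.0647) and with the lane as a covariate (-3.62, adjusted p = 0.556). From 24 to 48 h *Cd8b1* changed by 3.52 in WNK1-deficient thymocytes (adjusted p = 0.0936), and without the 3 set-aside libraries by 3.18 (adjusted p = 0.0476).

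*Cd4* encodes the coreceptor for MHC class II (chr6:124864693-124888247, protein coding). In control thymocytes its normalized counts were 56.2, 124 and 144 at 0 h, 129, 247 and 5508 at 3 h, 348, 373 and 105 at 24 h, and 496, 1822 and 587 at 48 h. All control libraries at 48 h lay above all those at 0 and 24 h, whereas the 3 h group overlapped with 0 h. *Cd4* rose at 48 h (log2 change 3.00, standard error 0.94, adjusted p = 0.0137) and at 3 h (2.47, adjusted p = 0.044), and at 24 h gave 1.25 (adjusted p = 0.327). The 3 h rise rests on control replicate 3: without it the log2 change was 0.83 (limma, adjusted p = 0.389). The 48 h rise had an adjusted p of 0.0645 without control replicate 1 at 0 h and 0.0671 without control replicate 2 at 48 h. It was 0.000158 without the 3 set-aside libraries, where the log2 change was the same and the standard error was 0.54. That smaller p comes from the narrower spread and is no separate support.

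In WNK1-deficient thymocytes *Cd4* was at 42.9, 32.3, 103 and 51.5 at 0 h, 59.6, 106 and 115 at 3 h, 191, 205 and 170 at 24 h, and 66.1, 253 and 44.3 at 48 h. The 3 libraries at 24 h lay within 1.2 times of each other and above all at 0 h, while those at 48 h spread over 5.71 times. No change against 0 h passed the test, with log2 changes of 0.78, 1.83 (adjusted p = 0.124) and 0.79 at 3, 24 and 48 h. Without the 3 set-aside libraries *Cd4* rose by 24 h in both genotypes, by 1.84 in control (adjusted p = 0.022) and 1.83 in WNK1-deficient thymocytes (adjusted p = 0.00791).

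**Figure D2:**
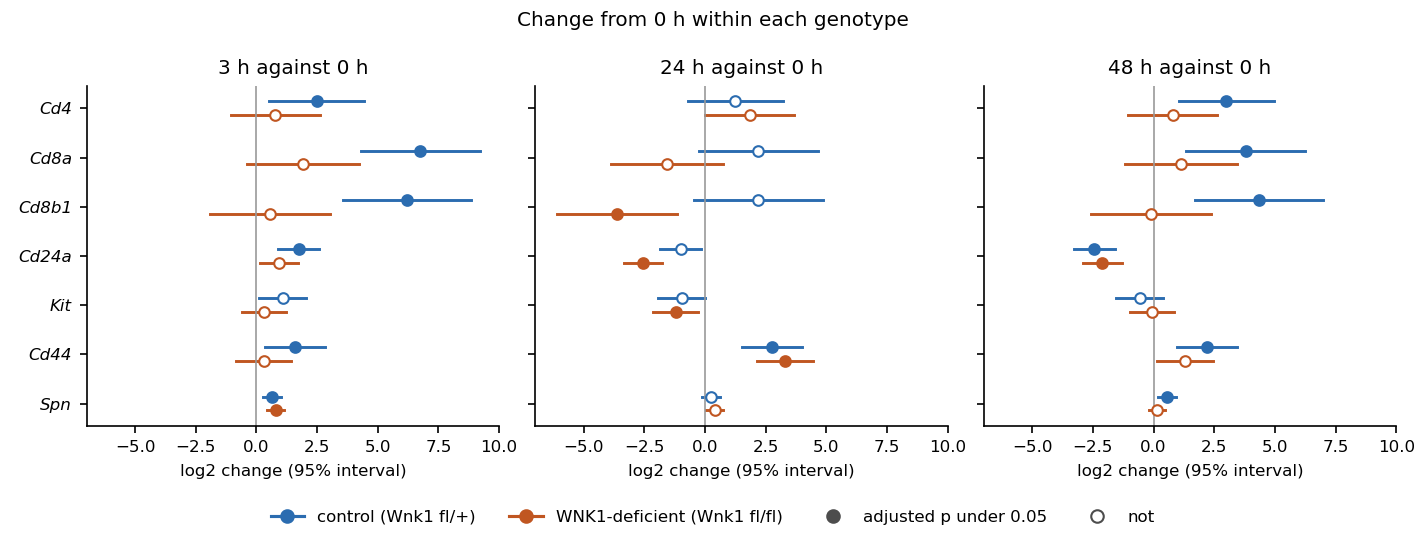
Log2 change of each gene from 0 h at 3, 24 and 48 h (horizontal axis, with 95% intervals), control in blue and WNK1-deficient in orange, filled where the adjusted p is under 0.05. At 48 h the control points for *Cd4*, *Cd8a* and *Cd8b1* lie at 3.00, 3.79 and 4.36 and the WNK1-deficient ones at 0.79, 1.12 and -0.10.

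Set side by side at 48 h, *Cd4* was the coreceptor gene that differed between the genotypes. Its log2 difference, WNK1-deficient minus control, was -3.14 (standard error 0.94, 95% interval -5.10 to -1.19, adjusted p = 0.032), from a mean of 968 ± 741 (SD, n = 3) in control to 121 ± 115 (SD, n = 3) in WNK1-deficient libraries, with no overlap. Of the 7 genes, 2 differed at 48 h, *Cd4* and *Spn*, beside 13.1% of all genes, and 3 had groups that did not overlap, beside 23.3% of all genes. The *Cd4* call is not firm, since the adjusted p was 0.148 and 0.0574 without control replicates 2 and 3 and 0.0964 and 0.129 without WNK1-deficient replicates 1 and 3, 0.0529 in edgeR, 0.053 with no filter on low genes, 0.0681 in a fit of the 48 h groups alone and 0.347 with the lane as a covariate. DESeq2 made the call too. Without the 3 set-aside libraries the adjusted p was 0.00821 in limma, with a log2 difference of -2.63 and a standard error of 0.60. Those libraries were picked on values in these genes and hold the highest *Cd4* count, so that smaller p is no separate support.

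The proportion of *Cd4* to *Cd8a* within a library also set the genotypes apart at 48 h, read only between libraries since counts are not corrected for gene length. At 48 h *Cd4* reads were 3.07, 19.7 and 14.7 times *Cd8a* reads in the control libraries and 0.99, 2.80 and 0.64 times in the WNK1-deficient ones. All 3 control values lay above all 3 WNK1-deficient values. At 0 h the ratios were 13.6 to 48.0 in control and 0.82 to 2.81 in WNK1-deficient libraries, at 3 h 0.44 to 2.38 and 0.28 to 1.44, and at 24 h 4.96 to 16 and 7.22 to 67.0. The 48.0 rests on 1 *Cd8a* read in control replicate 1 at 0 h, and the 67.0 on 2 in WNK1-deficient replicate 2 at 24 h. These ratios were described and not tested. The ratio of *Cd4* to *Cd8a* was low at 3 h and high at 24 h in both genotypes, and at 0 and 48 h it was high in control and low in WNK1-deficient libraries.

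*Cd8b1* relative to *Cd8a* stood at 1.06 to 1.38 in control libraries at 48 h and at 0.34 to 0.86 in WNK1-deficient ones, again without overlap. At 3 h it was 0.41 to 0.71 in control and 0.23 to 0.94 in WNK1-deficient libraries. At 0 h it was 0 to 1.9 and 0.92 to 1.3, with the higher median in WNK1-deficient libraries, and at 24 h 0.21 to 2.30 and 0.1 to 1. The genotypes overlapped at each of these times. Across the 25 libraries the log2 values of *Cd8a* and *Cd8b1* had a Pearson correlation of 0.91, and *Cd4* had 0.53 with *Cd8a* and 0.50 with *Cd8b1*. These are descriptions, since control replicate 3 at 3 h is the highest point in all 3 genes.

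**Figure D3:**
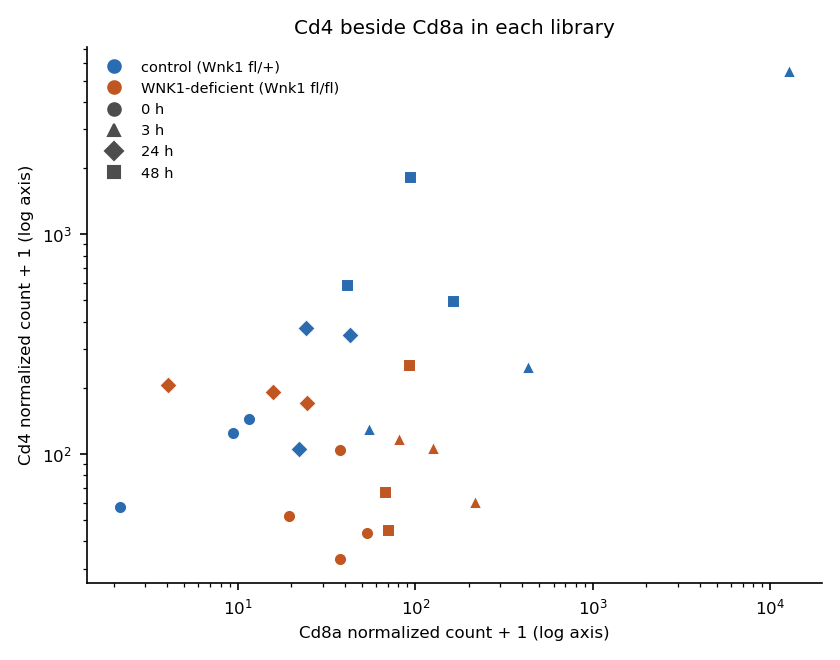
Normalized count plus 1 of *Cd4* against that of *Cd8a* in each of the 25 libraries (both axes log), with colour for genotype and symbol shape for time. Control libraries at 48 h lie above the WNK1-deficient ones at like *Cd8a*, and control replicate 3 at 3 h stands alone at the top right (5508 and 12653).

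Before injection the order of the genotypes was the other way for the CD8 genes. At 0 h *Cd8a* and *Cd8b1* were higher in all 4 WNK1-deficient libraries than in any control library, with log2 differences of 2.49 (95% interval 0.18 to 4.80) and 2.99 (0.52 to 5.47) and adjusted p of 0.112 and 0.0752 in limma. In summed reads the WNK1-deficient level was 4.70 times (counting interval 2.90 to 8.04) and 4.38 times (2.84 to 7.02) the control level. These intervals hold counting error only and leave out the spread between mice, so they are no test of the genotypes. Groups did not overlap for 6 of the 7 genes, beside 40.5% of all genes, and 1 of the 7, *Spn*, passed the test, beside 22.1%. Without the 3 set-aside libraries, which narrows the shared spread, *Cd8a* (adjusted p = 0.019), *Cd8b1* (adjusted p = 0.0111) and *Cd44* (adjusted p = 0.0465) passed as well, beside 26.4% of all genes. In a fit of the 0 h groups alone 5 of the 7 passed. That count has no share of all genes beside it and is not read further. At this time genotype and lane cannot be told apart.

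At 3 and 24 h no member passed between the genotypes in limma, beside 9.18% and 12.5% of all genes at the adjusted threshold. At an unadjusted p under 0.05 there were 2 and 4, counts with no share of all genes beside them and so not read further. At 3 h edgeR and DESeq2 each called *Cd4*, *Cd8a* and *Cd8b1* lower in WNK1-deficient thymocytes, a result that turns on control replicate 3: without it the limma differences were -0.98, -0.24 and -0.48, with adjusted p from 0.469 to 0.916. With the lane as a covariate limma called *Cd4* (-4.07, adjusted p = 0.00986) and *Cd8a* (-4.26, adjusted p = 0.0276) at 3 h, beside 7.78% of all genes. These calls are no separate support. All WNK1-deficient libraries at 3 h were on lane 4, and control replicate 3 was the only control library of that time there. With the lane limma also called *Cd24a* (-1.09, adjusted p = 0.011) and *Cd44* (1.96, adjusted p = 0.00991) at 24 h, beside 15.0%. At 24 h edgeR called none of the 7 and DESeq2 called *Cd8b1* (log2 difference -3.78, adjusted p = 0.0322) and *Cd44* (1.53, adjusted p = 0.0333), with no share of all genes beside these calls. Groups did not overlap for 2 of the 7 genes at 3 h (28.2% of all genes) and for 3 at 24 h (33.9%). *Cd8b1* at 24 h had 107 reads over the control libraries and 6 over the WNK1-deficient ones.

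**Figure D4:**
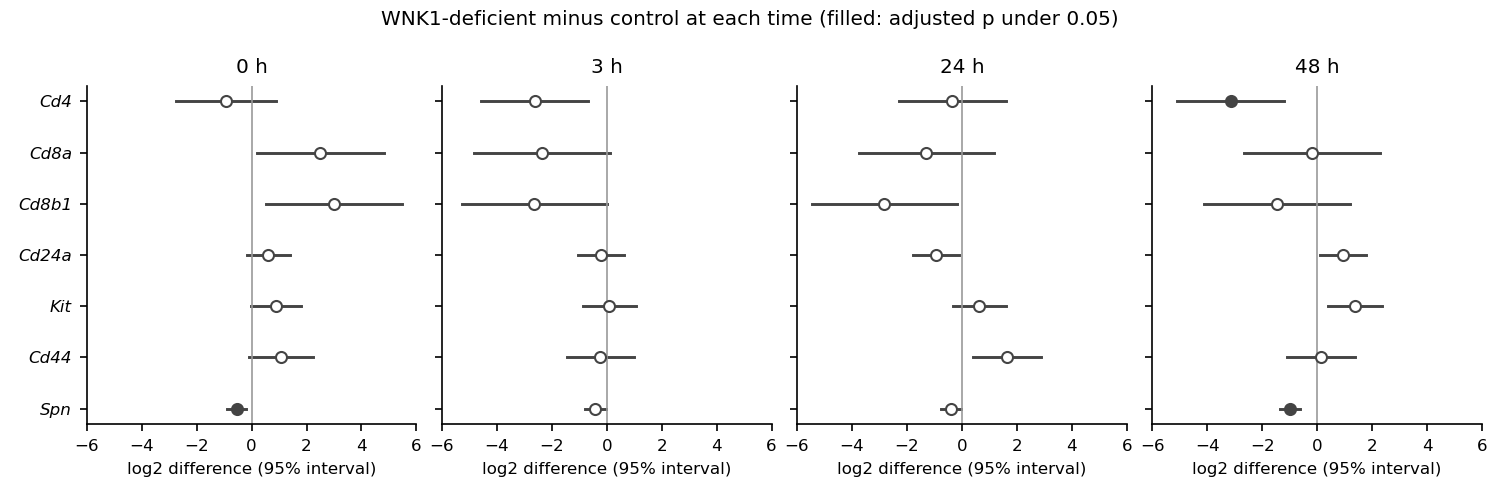
Log2 difference of each gene, WNK1-deficient minus control, at 0, 3, 24 and 48 h (horizontal axis, with 95% intervals), filled where the adjusted p is under 0.05. Filled points are *Spn* at 0 h (-0.54) and *Cd4* (-3.14) and *Spn* (-0.98) at 48 h.

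Whether the response itself differed between the genotypes was asked with a genotype by time interaction. No member passed at 3 h (0.0707% of all genes passed), 24 h (0.658%), 48 h (1.36%) or from 24 to 48 h (0.0283%) in limma. At an unadjusted p under 0.05 there were 2, 3, 1 and 3, again with no share of all genes beside them. The interaction was -4.86 for *Cd8a* and -5.62 for *Cd8b1* at 3 h (adjusted p = 0.252 and 0.217), -5.81 for *Cd8b1* at 24 h (adjusted p = 0.125), and -2.21 for *Cd4* at 48 h (95% interval -4.89 to 0.47, adjusted p = 0.519). Thus a rise of the coreceptor genes past the threshold in control and not in WNK1-deficient thymocytes is not shown to be a difference of response. DESeq2 called *Cd8a* and *Cd8b1* at 3 h, *Cd8b1* at 24 h and *Cd24a* from 24 to 48 h, edgeR called none, and without the 3 set-aside libraries *Cd8b1* at 24 h passed in limma (-5.27, adjusted p = 0.0343).

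*Cd24a* (chr10:43579169-43584265, protein coding) encodes CD24, a small glycolipid-anchored protein that thymocytes shed late in their maturation. Its level was highest at 3 h in both genotypes. Control libraries were at 24077, 22849.7 and 24642 normalized counts at 0 h, 94178, 78733 and 69587 at 3 h, 9378, 8557 and 21209.9 at 24 h, and 6994, 4020.4 and 2963 at 48 h. Each time was separate from 0 h, higher at 3 h and lower later. *Cd24a* rose at 3 h (log2 change 1.75, adjusted p = 0.00219) and fell at 48 h (-2.45, standard error 0.41, adjusted p = 5.6e-05), with -0.998 at 24 h (adjusted p = 0.0632). The 24 h value was -1.41 (adjusted p = 0.000412) without the 3 set-aside libraries, of which control replicate 3 at 24 h had 21209.9. Both 48 h and 24 h changes keep their direction with the lane as a covariate, and the 3 h change became -0.04 (adjusted p = 0.961). Lanes 3 and 4 hold all control libraries of 3 and 24 h and none of 0 h. Processed pseudogene copies of *Cd24a* exist, and its counts are uncertain as far as reads were shared with them.

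In WNK1-deficient libraries *Cd24a* was also highest at 3 h. They were at 48060, 35477, 31362 and 33491 at 0 h, 56897, 73206 and 80401 at 3 h, 5802, 5897 and 6917 at 24 h, and 6729, 4338 and 20687 at 48 h. It fell at 24 h (log2 change -2.56, adjusted p = 2.66e-05) and 48 h (-2.11, adjusted p = 0.000317), with 0.92 at 3 h (adjusted p = 0.0802, and 0.00516 without the 3 set-aside libraries). From 24 to 48 h *Cd24a* fell in control thymocytes (-1.45, adjusted p = 0.0147), the only one of the 7 genes to change between these times (23.3% of all genes). In WNK1-deficient thymocytes it gave 0.45 (adjusted p = 0.509), and -0.20 without replicate 3 at 48 h. The control value was -1.04 (adjusted p = 0.0921) without control replicate 3 at 24 h and -1.17 (adjusted p = 0.107) without control replicate 3 at 48 h, and -0.36 (adjusted p = 0.825) with the lane as a covariate. Between the genotypes *Cd24a* did not pass in limma at any time, with log2 differences of 0.62, -0.21, -0.95 and 0.95 at 0, 3, 24 and 48 h, while DESeq2 called it at 48 h (1.185, adjusted p = 0.0272) and limma with the lane at 24 h, as given above.

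*Kit* encodes the receptor for stem cell factor (chr5:75574987-75656722, protein coding). Control libraries held 1444, 1503 and 1320 normalized counts at 0 h, 1362, 3963 and 5085 at 3 h, 426, 780 and 1147 at 24 h, and 967, 678 and 1341 at 48 h. WNK1-deficient libraries held 3425, 2428, 2388 and 2344 at 0 h, 7181, 2098 and 2217 at 3 h, 1075, 827 and 1594 at 24 h, and 3456, 1772 and 2548 at 48 h. All WNK1-deficient libraries lay above all control ones at 0 and 48 h, and the groups overlapped at 3 and 24 h. The log2 difference at 48 h was 1.38 (standard error 0.47, adjusted p = 0.0545), and at 0 h 0.88 (adjusted p = 0.154), neither past the threshold, while DESeq2 called the former (adjusted p = 0.0188). Within genotypes *Kit* fell in WNK1-deficient thymocytes at 24 h (-1.22, adjusted p = 0.0393), a call lost when any 1 library of these groups but replicate 3 at 24 h was left out (adjusted p from 0.0556 to 0.168) and with the replicate number as a replicate block (-1.27, adjusted p = 0.0594). In control thymocytes no *Kit* change passed, with 1.09 at 3 h (adjusted p = 0.073) and -0.97 at 24 h (adjusted p = 0.115) in limma. The 3 h rise was called by edgeR (1.27, adjusted p = 0.0376) and DESeq2 (1.28, adjusted p = 0.0143), and the 24 h fall passed without the 3 set-aside libraries (-1.30, adjusted p = 0.0467).

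*Cd44* encodes the hyaluronan receptor whose protein was gated out in the sort (chr2:102811141-102901669, protein coding), so its transcript describes only cells that passed as CD44-. Control libraries were at 43.4, 16.9 and 46.5 at 0 h, 39.2, 114 and 223 at 3 h, 249, 354 and 127 at 24 h, and 150.2, 137 and 178 at 48 h. WNK1-deficient libraries were at 85.8, 49.9, 80.2 and 68.0 at 0 h, 140.1, 51.4 and 85.9 at 3 h, 663, 741 and 689 at 24 h, and 353, 235 and 60.3 at 48 h. At 24 h the 3 WNK1-deficient libraries were close together and above all others.

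*Cd44* rose at 24 h in both genotypes, by 2.74 on the log2 scale in control (adjusted p = 0.00118) and by 3.31 in WNK1-deficient thymocytes (adjusted p = 0.000101). In control it also passed at 3 h (1.59, adjusted p = 0.0397) and 48 h (2.21, adjusted p = 0.00485). In WNK1-deficient thymocytes the 48 h change was 1.29 (adjusted p = 0.0897), and it was called by edgeR (1.63, adjusted p = 0.0245), by DESeq2 (1.61, adjusted p = 0.00804) and without the 3 set-aside libraries (2.03, adjusted p = 0.00141). The 3 h value was 1.02 (adjusted p = 0.218) without control replicate 3, and that call was lost too without control replicate 1 or 2 at 0 h or replicate 2 at 3 h (adjusted p from 0.0535 to 0.191) and with a replicate block (adjusted p = 0.0582). From 24 to 48 h it fell in WNK1-deficient thymocytes (-2.02, adjusted p = 0.0442), the only one of the 7 genes to do so (6.5% of all genes), and without replicate 3 at 48 h that change was -1.27 (adjusted p = 0.176). Leaving out any of the WNK1-deficient libraries at 24 h gave an adjusted p from 0.0964 to 0.138, and the replicate block 0.0699. The difference between genotypes at 24 h was 1.64 (95% interval 0.40 to 2.87, adjusted p = 0.0753). *Cpa3* and *Cd44* were both high in the WNK1-deficient libraries at 24 h, and the part of other cells in this was not tested.

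*Spn* encodes CD43 (chr7:127123637-127145552, protein coding). The promoter window listed for it (chr7:127137774-127138073, minus strand) lies inside that span and not at its upstream end, 127145552. It is printed because *Spn* was the gene that differed between the genotypes at both 0 and 48 h. Capitals mark 1 E-box and 2 copies of the ETS letters AGGAAG, one of them on the other strand.

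Spn: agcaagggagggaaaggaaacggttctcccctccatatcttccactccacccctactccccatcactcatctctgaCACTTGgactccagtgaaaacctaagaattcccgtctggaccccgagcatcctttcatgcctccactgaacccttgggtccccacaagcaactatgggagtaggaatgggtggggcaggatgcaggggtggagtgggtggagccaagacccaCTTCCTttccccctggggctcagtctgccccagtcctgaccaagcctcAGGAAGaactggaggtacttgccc

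The letters TGTGGT and CTTTGA were not in this window. Windows with the ETS letters made up 35.4% of all, as given above.

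In control libraries *Spn* was at 18699, 17989 and 14298 normalized counts at 0 h, 24624, 30268.5 and 25169.8 at 3 h, 18977, 25737 and 16466 at 24 h, and 19685, 26693 and 29945 at 48 h. In WNK1-deficient libraries it was at 10861, 12833, 12146 and 10639 at 0 h, 17331, 20027.5 and 23109 at 3 h, 14847, 17098 and 13929 at 24 h, and 13933, 13974 and 10602 at 48 h. At 0, 3 and 48 h no WNK1-deficient library reached the lowest control one, and at 24 h the groups overlapped. The log2 differences were -0.54 at 0 h (standard error 0.17, adjusted p = 0.0237), -0.41 at 3 h (adjusted p = 0.168), -0.40 at 24 h (adjusted p = 0.156) and -0.98 at 48 h (standard error 0.18, adjusted p = 0.00124).

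The 48 h difference in *Spn*, a fold of 1.97, held without any 1 of the 48 h libraries (adjusted p from 0.000667 to 0.011) and without the 3 set-aside libraries (-0.84, adjusted p = 0.00685), and of the alternatives tried was lost in the fit of the 48 h groups alone (adjusted p = 0.0798). At 0 h it was -0.16 with the lane as a covariate (adjusted p = 0.793), -0.39 after quantile normalization (adjusted p = 0.0578), and the adjusted p rose to between 0.0608 and 0.117 without control replicate 1 or 2 or WNK1-deficient replicate 1 or 4. Within genotypes *Spn* rose at 3 h in control (0.65, adjusted p = 0.00698) and in WNK1-deficient thymocytes (0.79, adjusted p = 0.00189, and 0.76, adjusted p = 0.45, with the lane as a covariate). At 48 h it was above 0 h in control (0.57, adjusted p = 0.0136), and the value in WNK1-deficient thymocytes was 0.14 (adjusted p = 0.582). The control call at 48 h had an adjusted p of 0.0728 without control replicate 3 at 0 h and 0.0848 without control replicate 3 at 48 h. The interaction at 48 h was -0.43 (adjusted p = 0.498).

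Other genes of the transition were read from 3 fixed lists, to set the coreceptors in their pathway. Of 21 regulators of coreceptor transcription, 11 rose and 4 fell in control thymocytes at 48 h against 0 h, beside 42.4% of all genes called. In WNK1-deficient ones 11 rose and 3 fell, beside 26.8% of all genes. The list medians were 0.54 and 0.57. Between the genotypes at 48 h 2 stood higher in WNK1-deficient thymocytes and 2 lower, beside 13.1% of all genes called. *Lef1*, a TCF family factor that acts with *Tcf7* on coreceptor genes, fell by 1.12 (adjusted p = 0.0165), from 25485 to 11976, and *Ets1* fell by 0.85 (adjusted p = 0.00056), from 55272 to 30349. *Zbtb7b*, which encodes ThPOK, the factor of the CD4 lineage, was 2.93 higher (adjusted p = 0.00419) at low counts of 67.4 against 7.65, and *Myb* was 0.97 higher (adjusted p = 0.0058).

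*Ikzf3*, *Ikzf1*, *Gata3* and *Runx3* gave the smallest p of this list in control thymocytes at 48 h. Their log2 changes were 7.40, 1.84, 1.60 and 2.35 in control and 3.70, 1.07, 1.35 and 1.60 in WNK1-deficient thymocytes, all past the threshold (adjusted p from 1.28e-09 to 2.80e-05 in limma). *Runx3* and *Gata3*, which act on the CD8 and CD4 sides of the lineage choice, thus rose in both genotypes, and between the genotypes at 48 h they gave -0.12 and 0.14 (adjusted p = 0.794 and 0.598).

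Of 23 genes of the DN to DP transition, 9 rose and 8 fell in control thymocytes at 48 h, beside 42.4% of all genes called. In WNK1-deficient ones 8 rose and 7 fell, beside 26.8% of all genes. Between the genotypes at 48 h none was higher and 5 were lower in WNK1-deficient thymocytes, beside 13.1% of all genes called, with a list median of -0.48 beside -0.01 over all genes. *Trac*, the TCRα constant region gene, was at 2304 in control and 321 in WNK1-deficient libraries (log2 difference -3.24, adjusted p = 0.0136), from 1.52 and 3.05 at 0 h. *Id3*, an inhibitor of E proteins induced by pre-TCR signals, was at 10849 and 4010.1 (-1.58, adjusted p = 0.00461), from 474 and 624 at 0 h. *Dtx1*, a target of Notch, differed by -1.72 (adjusted p = 0.00626) and *Ets2* by -1.34 (adjusted p = 0.00151). *Cd28* rose by 3.72 and 3.08 and *Cd2* by 8.95 and 5.39 in control and WNK1-deficient thymocytes, and neither differed past the threshold between the genotypes at 48 h (adjusted p = 0.944 and 0.548).

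Of 16 progenitor genes 10 were tested. At 48 h in control 1 rose and 4 fell, beside 42.4% of all genes called, with a list median of -1.37. In WNK1-deficient thymocytes none rose and 2 fell, beside 26.8% of all genes (median -0.72). Between the genotypes 1 differed at 48 h, beside 13.1% of all genes. It was *Nfe2*, higher by 1.37 (adjusted p = 0.045), at 1500 against 545. In control thymocytes *Nfe2* fell by 2.11, *Spi1* by 1.80 and *Mef2c* by 2.95 (adjusted p = 0.000615, 0.00463 and 0.0148), and *Il7r*, the interleukin-7 receptor gene, rose by 0.75 (adjusted p = 0.0182).

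The genes whose 8 group means on the log2 scale followed each member most closely were listed by Pearson correlation, which over so few points is high for many genes and is a description only. For *Cd4* they were *Ttpal* (0.94), *Tomm34* (0.92) and *Zfhx3* (0.92), and over the 25 libraries 0.80, 0.71 and 0.80. For *Cd8a* they were *Sec63* (0.97), *Cep295* (0.96) and *Arf6* (0.96), and for *Cd8b1* *Fam76a* (0.95), *Cd8a* itself (0.95) and *Cdr2* (0.93), and over the 25 libraries these 6 correlations ran from 0.57 to 0.91. *Cd24a* was followed by *Metap2* (0.99), *Tspan2* (0.99) and *Prps2* (0.98), with 0.91 to 0.98 over the 25 libraries, and *Kit* by *Zfp869*, *E2f5* and *Zbtb26* (0.98 each), with 0.65 to 0.71. *Cd44* was followed by *Slc9b2*, *Hdac10* and *Exoc6* (0.97 to 0.98, over libraries 0.83 to 0.92), and *Spn* by *Rhot2*, *Fam207a* and *Unc45a* (0.97 to 0.98, over libraries 0.79 to 0.87).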

How the data were processed

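Thy1.2+ CD44- thymocytes of 25 mice were sequenced as stranded, polyA-enriched libraries with single-end reads of 75 bases. Per the submitters' processing notes and the paper's methods, the authors trimmed reads with Trimmomatic 0.36, aligned them to GRCm38 (Ensembl release 86) with STAR 2.5.2a and counted genes with RSEM 1.2.31. The deposited signal values are those counts divided by the authors' DESeq2 1.18.1 size factor of each library. Dividing by each library's smallest step gave whole reads within 0.001 for all values of all 25 libraries, and these recovered reads gave the depth.

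The 14141 genes averaging 10 or more were fitted on log2(value + 1) with limma 3.58.1 in R 4.3.3, with 1 mean per group over all 8 groups and a trend. This scale understates changes of low genes. P values were adjusted within each comparison (Benjamini-Hochberg, threshold 0.05). The members and gene lists were chosen with earlier results of these data known. Named list genes are those past the threshold with the smallest adjusted p, up to 4 a list, between genotypes at 48 h and in control thymocytes at 48 h. Not every gene of these lists is reported here. Promoter windows came from RefSeq (GRCm38.p6), which held 4 of the 7 genes. Alternatives were other pseudocounts, filters and normalizations, no trend, fits of the compared groups, a replicate block, the lane, edgeR 4.0.16 and DESeq2 1.42.0 on recovered reads, and each library left out. Leaving out the 3 set-aside libraries, or control replicate 3 at 3 h throughout, was chosen after seeing the data. Mice are separate, so p-values measure the spread between mice.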

Additional observations from a re-analysis of the deposited data

Results flagged for a closer look

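In WNK1-deficient thymocytes at 0 h, the group of 4 libraries, 2 of the 7 genes had a library far from the others. For *Kit* replicate 1 stood at 3425 normalized counts beside 2344 to 2428 in the others, a gap of 0.922 of the group's range. For *Cd8b1* replicate 4 stood at 23.9 beside 45.1 to 48.4, a gap of 0.863 of the range. Both gaps exceed Dixon's 95% critical value for 4 libraries, which chance alone passes in about 1 of 20 groups, and 7 genes were looked at.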

How the results depend on the processing

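The number of the 7 genes called moved by over 1.5 times in 47 of 240 recomputed counts and stayed within that in 193, and the cause was not tested. Shares of all genes are given for the fits with the lane, without control replicate 3 at 3 h and without the 3 set-aside libraries. Counts in the other settings have no share of all genes beside them and are not read further. After quantile normalization the number called was, between the genotypes 0 at 0 h, and in WNK1-deficient thymocytes 2 at 3 h. In fits of only the groups compared it was, between the genotypes 5 at 0 h, 1 at 24 h and 0 at 48 h, in control thymocytes 3 at 3 h and 0 from 24 to 48 h, in WNK1-deficient thymocytes 3 at 3 h, and in the interaction 2 at 24 h. With the lane as a covariate it was, between the genotypes, 0 at 0 h, 2 at 3 h (7.78% of all genes), 2 at 24 h (15.0%) and 1 at 48 h. In control thymocytes it was then 3 at 3 h (18.2%), 2 at 24 h (15.1%), 3 at 48 h (37.7%) and 0 from 24 to 48 h. In WNK1-deficient thymocytes it was 0 at 3 h, 2 at 24 h (8.87%) and 2 from 24 to 48 h (3.08%). With the lane the share of all genes called was 4.7% in place of 22.1% between the genotypes at 0 h, 3.83% in place of 13.1% at 48 h, 0.219% in place of 23.3% in control thymocytes from 24 to 48 h and 1.41% in place of 24.7% in WNK1-deficient thymocytes at 3 h. Without control replicate 3 at 3 h in any comparison it was, between the genotypes 3 at 0 h and 1 at 24 h, in control thymocytes 2 at 24 h and 2 from 24 to 48 h, in WNK1-deficient thymocytes 3 from 24 to 48 h, and in the interaction 1 at 24 h. Without the 3 set-aside libraries it was, between the genotypes, 4 at 0 h (26.4% of all genes), and in control thymocytes 5 at 24 h (36.7%). In WNK1-deficient thymocytes it was then 2 at 3 h (29.2%) and 2 at 48 h (33.9%), and in the interaction 1 at 24 h (2.29%). In edgeR it was, between the genotypes 3 at 3 h and 1 at 48 h, and in WNK1-deficient thymocytes 2 at 48 h and 0 from 24 to 48 h. In DESeq2 it was, between the genotypes 3 at 3 h, 2 at 24 h and 4 at 48 h, in WNK1-deficient thymocytes 2 at 48 h and 2 from 24 to 48 h, and in the interaction 2 at 3 h, 1 at 24 h and 1 from 24 to 48 h. With no filter it was, between the genotypes 1 at 48 h, and in WNK1-deficient thymocytes 0 from 24 to 48 h. With no trend it was, in WNK1-deficient thymocytes 0 from 24 to 48 h. With the replicate block it was, in WNK1-deficient thymocytes 0 from 24 to 48 h. With 1 library left out it ran, between the genotypes from 0 to 2 at 0 h, from 0 to 3 at 3 h and from 1 to 4 at 48 h, in control thymocytes from 1 to 2 at 24 h, from 3 to 6 at 48 h and from 0 to 2 from 24 to 48 h, in WNK1-deficient thymocytes from 2 to 3 at 24 h, from 1 to 2 at 48 h and from 0 to 1 from 24 to 48 h, and in the interaction from 0 to 2 at 3 h, from 0 to 1 at 24 h and from 0 to 1 from 24 to 48 h.

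The sign of a member's log2 value also turned under some settings, and of these values only that of *Cd24a* in control thymocytes at 3 h had passed the test in limma. After quantile normalization the sign turned, between the genotypes for *Cd24a* at 3 h (0.039), and in WNK1-deficient thymocytes for *Cd8b1* at 48 h (0.0084). With the lane as a covariate the sign turned, between the genotypes for *Cd4* at 24 h (0.38), for *Cd8a* at 48 h (0.94), for *Cd24a* at 0 h (-0.22), for *Cd24a* at 3 h (0.083) and for *Kit* at 3 h (-0.10), in control thymocytes for *Cd24a* at 3 h (-0.041), in WNK1-deficient thymocytes for *Cd8b1* at 3 h (-0.55), for *Cd8b1* at 48 h (1.12), for *Kit* at 3 h (-0.77) and for *Spn* at 48 h (-0.12), and in the interaction for *Cd8a* at 48 h (0.034), for *Cd24a* at 3 h (0.31), for *Kit* at 48 h (-0.72), for *Spn* at 3 h (-0.28) and for *Spn* at 24 h (-0.23). Without control replicate 3 at 3 h in any comparison the sign turned, between the genotypes for *Cd44* at 3 h (0.34). Without the 3 set-aside libraries the sign turned, between the genotypes for *Cd44* at 3 h (0.34), in WNK1-deficient thymocytes for *Cd24a* from 24 to 48 h (-0.20), and in the interaction for *Cd4* at 24 h (-0.0041), for *Cd24a* at 48 h (-0.31) and for *Kit* at 24 h (0.083). With 1 library left out it turned, with these ranges, between the genotypes for *Cd8a* at 48 h (-0.70 to 0.29), for *Kit* at 3 h (-0.48 to 0.47), for *Cd44* at 3 h (-0.89 to 0.34) and for *Cd44* at 48 h (-0.37 to 0.90), in WNK1-deficient thymocytes for *Cd8b1* at 48 h (-0.43 to 0.24), for *Cd24a* from 24 to 48 h (-0.20 to 0.93), for *Kit* at 3 h (-0.28 to 0.61), for *Kit* at 48 h (-0.30 to 0.18) and for *Cd44* at 3 h (-0.064 to 0.65), and in the interaction for *Cd4* at 24 h (-0.0041 to 1.00), for *Cd24a* at 48 h (-0.31 to 0.82) and for *Kit* at 24 h (-0.63 to 0.083).

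The labels give the genotypes shared replicate numbers, but same-numbered libraries did not deviate together: the correlations of their deviations from the group means ran from -0.20 to 0.20 over 12 pairs, 2 of them over 0.1, and 4 of the 12 libraries correlated best with their own number. With a replicate block on that number, the count of members called was 4 in place of 6 in control thymocytes at 3 h and 3 in place of 4 in WNK1-deficient thymocytes at 24 h, and it changed no other count but the one at 48 h against 24 h given above. The counts with the block have no share of all genes beside them and are not read further. The ratios of *Cd4* and *Cd8b1* to *Cd8a* moved by less than 1 SD with a pseudocount of 0.5 or 5. Depth limits *Cd8a* and *Cd8b1* most, which at 0 h in control libraries rest on 0 to 19 reads.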

Other observations

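Control replicate 3 at 3 h stood apart in a short list of genes, chosen after their values were seen. At a level of at least 500 normalized counts, 15 genes were at least 8-fold above both other control libraries of that time, 3 of them *Cd4*, *Cd8a* and *Cd8b1*, and 2 genes were at least 8-fold below both. Of the 15, 13 were higher in this library than in any of the other 24. *Camk4*, a calcium-dependent kinase gene, was at 2572 beside 216 and 145. *Trac* was at 1979 beside 332 and 241, which falls short of the 8-fold limit. *Id3*, at 2512 in this library, lay between the 3753 and 2299.9 of the others, and *Ets1*, at 39823, between their 33863 and 41092.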
